A study of Mus musculus with 23 samples.

Results

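The S100 proteins are a family of small calcium-binding proteins, and 7 of their genes were followed here in the ageing mouse hippocampus: S100b, S100a6, S100a4, S100a10, S100a11, S100a1 and S100a13. They were chosen by name, with earlier results of these data known. Every probe set whose platform annotation lists one of these symbols was taken, whatever its values, which gave 13 of the 12488 probe sets on the array. Of these, 12 are annotated to 1 gene each and stand for 6 of the 7 genes, among 8251 genes with such a probe set on the array. The only probe set that lists S100a11 also lists other loci, so S100a11 itself has no value of its own.

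The mice were males of the C57BL/6JNIA strain, and RNA was taken from each whole hippocampus. The middle-aged group held 14 mice of 15 months and the young group 9 mice of 2 months, with 1 array for each mouse. Mice of both ages had learnt the Morris water maze, where a mouse swims to the remembered place of a hidden platform, so both groups are trained animals, and the labels name no genetic change or drug. The question is which transcripts differ between middle-aged and young hippocampus. Values are MAS5 signals, the brightness of a probe set on a linear scale after each array was scaled to the same trimmed mean of 500.3. One array differed from the rest, that of 15-month replicate 13, whose 25th percentile signal was 53.4 against 30.2 to 41.8 elsewhere. Hpca, a calcium sensor of hippocampal neurons that marks the tissue, averaged 7336 ± 1143 in 15-month mice and 7551 ± 1159 in 2-month mice (SD). All 15-month mice carry lower running numbers than all 2-month mice, so handling order, if it followed these numbers, cannot be told apart from age.

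S100 proteins carry a pair of EF-hands, helix-loop-helix units that hold calcium, and most work as dimers. When calcium rises, most of them open a surface that grips a target protein, and some are also released and act on receptors of other cells. In the brain S100b is best known as a protein of astrocytes, S100a6 is found in astrocytes and in some neurons, and S100a10 is the exception of the family, since its EF-hands no longer bind calcium and it stays ready to bind annexin A2. Most genes of the family lie together. In the RefSeq annotation of GRCm38.p6, 15 protein-coding S100 genes are on chromosome 3, the S100b gene is on chromosome 10, and S100z and S100g are on chromosomes 13 and X. Within that group S100a1 and S100a13 are next to each other, S100a4, S100a5 and S100a6 follow in a row, and S100a11 and S100a10 are neighbours.

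S100b and S100a6 were higher in the 15-month hippocampus, each by a log2 change of about 0.4, while the brightest probe sets of S100a10, S100a1 and S100a13 differed by at most 0.02. Probe sets with a mean signal above about 91.7, the 40th percentile of the array, were tested with limma across all of them, and 8 of the 12 member probe sets, from 5 genes, were bright enough. At a Benjamini-Hochberg adjusted p under 0.05, 2 of the 8 were called higher at 15 months, against 0.335% of the 7453 probe sets tested, and 0 were called lower, against 0.0403%. Since the genes were chosen with earlier results of these data known, the shares are a description and no test of the family. At an unadjusted p under 0.05 the limma test gave 2 members higher, where 5.89% of all tested probe sets were higher, and 1 member lower, where 6.51% were lower. The median log2 change was 0.02 over the 8 members and -0.02 over all 7453 probe sets. Bulk tissue was measured, so a change in the number of cells of a type and a change in RNA per cell cannot be told apart.

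**Figure D1:**
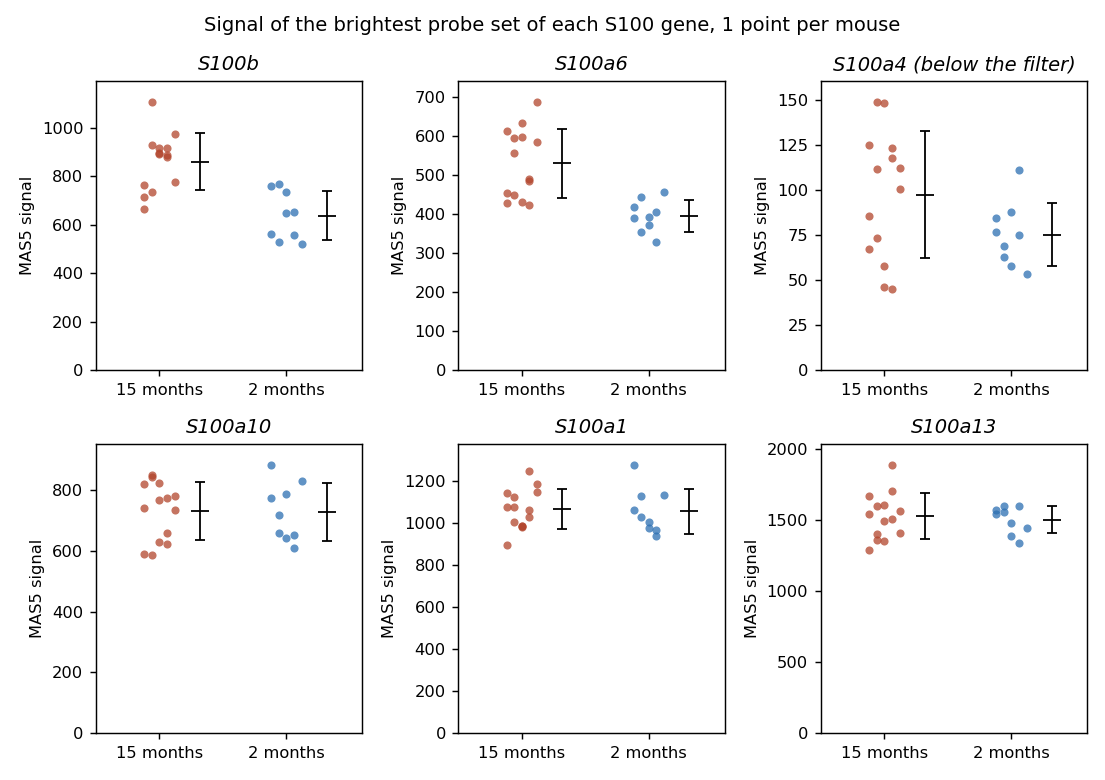
MAS5 signal (linear scale, axis from 0) of the brightest probe set of 6 S100 genes, 1 point per mouse, 15-month mice on the left and 2-month mice on the right of each panel; bars are the mean ± SD (n = 14 and 9). S100b and S100a6 sit higher at 15 months with some overlap, the S100a4 values spread more widely at 15 months, the ages overlap throughout for S100a10 and S100a1, and the S100a13 values of 15-month mice reach above and below those of 2-month mice.

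S100b, the astrocyte protein that acts inside the cell on the cytoskeleton and outside it as a growth-promoting or, in excess, harmful signal, has 1 probe set, 101467_at. Its signal in the 15-month mice was lowest at 664.9, had a median of 891.6 and was highest at 1105.2, and in the 2-month mice it was lowest at 519.6, had a median of 650.3 and was highest at 769.9. The groups overlapped at their edges: 10 of 14 15-month mice were above every 2-month mouse, 6 of 9 2-month mice were below every 15-month mouse, and all 14 were above the 2-month mean. The last pattern was seen in 1.1% of the probe sets tested, and groups that did not overlap at all, seen for 0 of the 8 tested member probe sets, in 0.0537%. The mean was 861 ± 117 at 15 months and 638 ± 99.8 at 2 months (SD, n = 14 and 9). The log2 change was 0.43 ± 0.09 (SE), a 1.34-fold difference with a 95% interval of 1.19 to 1.52 and an adjusted p of 0.0128 by limma, and it was 18th of the 7453 probe sets in order of p. An exact permutation test over all 817190 regroupings of the mice gave a two-sided p of 0.000142, not adjusted for the number of probe sets. The call was lost in an exact Mann-Whitney test (adjusted p = 0.0536). It was also lost with a marker score as a covariate in limma. The log2 change was then 0.46 with the astrocyte score (adjusted p = 0.0812) and 0.30 with the microglia score (adjusted p = 0.546). In those 2 fits 3 and 1 probe sets of the whole array were called higher.

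The start of the S100b gene is shown because this gene has the lowest p among the members. The window is 250 bases before to 50 bases after the annotated start, from RefSeq on GRCm38.p6, chr10:76253586-76253885 on the plus strand. Capitals mark the letters of a CCAAT box on either strand (ATTGG when read from the other strand):
S100b: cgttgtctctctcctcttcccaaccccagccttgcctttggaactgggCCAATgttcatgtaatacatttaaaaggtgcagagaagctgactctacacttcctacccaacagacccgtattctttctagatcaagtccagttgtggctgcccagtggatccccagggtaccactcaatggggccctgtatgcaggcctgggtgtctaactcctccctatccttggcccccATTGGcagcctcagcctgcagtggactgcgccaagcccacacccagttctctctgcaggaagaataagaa
The first match begins 202 bases before the start and the other 20 bases before it. The letters CCAAT occur on at least 1 strand in 37.4% of the 32851 RefSeq promoter windows of the same length.

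S100a6, also called calcyclin, was first found as a transcript of dividing cells and binds Cacybp, an adaptor of ubiquitin ligases, and several annexins. On its probe set 92770_at the 15-month mice had a lowest signal of 423.8, a median of 522.7 and a highest of 685.8, and the 2-month mice a lowest of 328.8, a median of 392.6 and a highest of 457.5. Of the 15-month mice 9 of 14 were above every 2-month mouse, 7 of 9 2-month mice were below every 15-month mouse, and all 14 15-month mice were above the 2-month mean. The mean was 530 ± 88.3 at 15 months and 396 ± 40.8 at 2 months (SD, n = 14 and 9). The log2 change was 0.40 ± 0.09 (SE), 1.32-fold with a 95% interval of 1.16 to 1.49, and the limma adjusted p was 0.0288. The exact permutation test gave a two-sided p of 0.000237, again not adjusted for the number of probe sets. This call lay close to the threshold. With the 4 arrays whose brightest signals were lowest left out (by their 99th percentile: 15-month replicate 3, 15-month replicate 12, 2-month replicate 7 and 2-month replicate 8) the log2 change was 0.36 with an adjusted p of 0.103, and leaving out single mice gave adjusted p-values of 0.0181 to 0.0909, with the call lost in 9 of 23 cases (15-month replicate 2, 5, 7 or 8, or 2-month replicate 1, 3, 4, 7 or 8).

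The S100a6 start is shown as the other member that passed the test. The window is chr3:90612644-90612943 on the plus strand, from the same source, and capitals mark a CCAAT box read on the other strand and an E-box (CACGTG, which reads alike on both strands):
S100a6: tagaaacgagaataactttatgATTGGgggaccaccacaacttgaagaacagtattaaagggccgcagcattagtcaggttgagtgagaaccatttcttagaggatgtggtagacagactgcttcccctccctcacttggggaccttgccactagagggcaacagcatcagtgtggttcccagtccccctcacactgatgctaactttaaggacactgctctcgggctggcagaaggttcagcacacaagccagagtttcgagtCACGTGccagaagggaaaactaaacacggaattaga
The E-box begins 14 bases after the start, and CACGTG was found in 7.15% of the 32851 windows. The S100b and S100a6 windows both hold the CCAAT letters, as do 37.4% of the 32851 windows. Searches on both strands for a TATA box (TATAAA), for a GC box, spelled GGGCGG, and for an AP-1 site, spelled TGANTCA, found no match in either, and no matches overlapped.

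**Figure D2:**
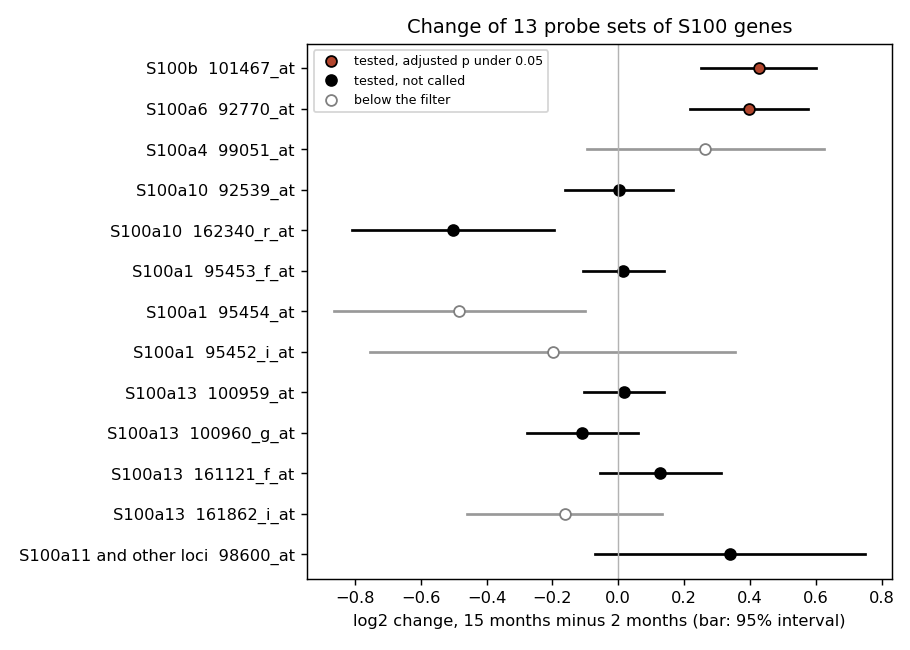
Log2 change, 15 months minus 2 months, of all 13 member probe sets; points are the estimates and bars the 95% intervals of the limma fit (for probe sets below the filter, of the fit without a filter). Only the S100b and S100a6 probe sets, in red, passed the test, and the intervals of the second S100a10 probe set and of the dim S100a1 probe set 95454_at lie below 0.

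S100a4, known in mouse from fibroblasts, motile cells and white matter astrocytes and as a partner of non-muscle myosin Myh9, was dim. Its probe set 99051_at had a lowest signal of 45.3, a median of 106.4 and a highest of 148.9 in 15-month mice, against 53.7, 75.2 and 111.4 in 2-month mice. The 15-month mice lay on both sides of the young range, with 7 of 14 above it and 2 below it, and they differed 3.29-fold among themselves against 2.07-fold in 2-month mice. Since the probe set was below the filter it got no call. In the fit without a filter its log2 difference was 0.26 ± 0.18 (SE, 95% interval -0.10 to 0.63), with a limma adjusted p of 0.665. S100a4 and S100a6 have only S100a5 between them, and S100a5 (95301_at), known from olfactory neurons, was dimmer, with signals of 8 to 68 in 15-month mice and 16.2 to 77.7 in 2-month mice.

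S100a10 forms a tetramer with annexin A2 at membranes and brings the serotonin receptors Htr1b and Htr4 and the potassium channel Kcnk3 to the cell surface. Its brighter probe set, 92539_at, had a lowest signal of 586.3, a median of 755 and a highest of 851.5 in 15-month mice, against 609.3, 717.6 and 882.5 in 2-month mice. The ages overlapped throughout, and the means were 730 ± 95.1 at 15 months and 728 ± 94.8 at 2 months (SD, n = 14 and 9). The log2 change was 0.00 ± 0.08 (SE), and its 95% interval of -0.16 to 0.17 holds no change as large as the estimate for S100b or S100a6. The other S100a10 probe set gave another picture. 162340_r_at, a dim one whose suffix marks probes chosen under relaxed rules, had 55.6, 95.6 and 140.7 as lowest, median and highest signal in 15-month mice, against 79.7, 137.6 and 185.5 in 2-month mice. Only 1 of the 14 15-month mice was above the 2-month mean on the log2 scale, and 4 were below every 2-month mouse. Its log2 change was -0.50 ± 0.15 (SE), with an unadjusted p of 0.00233 and an adjusted p of 0.148 by limma, so it was not called. Between mice, after each age's mean was subtracted, these probe sets correlated with r = 0.43 and rho = 0.49 over 23 mice, given as a description.

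S100a11, a partner of annexin A1, is listed on probe set 98600_at together with its pseudogene S100a11-ps and Gm12854, so the probe set cannot be assigned to it. Its signal was 70.1, 128.7 and 278.7 (lowest, median, highest) in 15-month mice, against 48.5, 112.9 and 176.6 in 2-month mice. The highest 4 values all came from 15-month mice, and 2 of 9 2-month mice were below every 15-month mouse. The log2 change was 0.34 ± 0.20 (SE, 95% interval -0.07 to 0.75), and the limma adjusted p was 0.504.

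S100a1, which in heart muscle tunes the ryanodine receptor and the calcium pump Atp2a2 and in brain is also found in neurons, has 3 probe sets. The bright one, 95453_f_at, had a lowest signal of 898.1, a median of 1072 and a highest of 1248 in 15-month mice, against 939.6, 1029 and 1278 in 2-month mice. The ages overlapped throughout, with means of 1069 ± 94.7 at 15 months and 1058 ± 107 at 2 months (SD, n = 14 and 9), and the log2 change was 0.02 ± 0.06 (SE, 95% interval -0.11 to 0.14) with a limma adjusted p of 0.933. The suffix of this probe set says that its probes match a family of sequences, so it may not read S100a1 alone. The other probe sets were far below the filter. 95454_at had signals of 1.3 to 30.1 in 15-month mice and 13.6 to 64.1 in 2-month mice, a log2 difference of -0.48, and 95452_i_at had 1.8 to 56.4 in 15-month mice and 3 to 54.2 in 2-month mice, a difference of -0.20. In the fit without a filter the 95% interval of 95454_at was -0.86 to -0.10 with an unadjusted p of 0.015 and an adjusted p of 0.389 by limma, and the adjusted p of 95452_i_at was 0.882.

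S100a13, which takes part in the export of the growth factor Fgf1 from cells together with a form of synaptotagmin Syt1, has 4 probe sets. The brightest, 100959_at, had a lowest signal of 1289, a median of 1525 and a highest of 1887 in 15-month mice, against 1340, 1546 and 1602 in 2-month mice. The mean was 1527 ± 162 at 15 months and 1503 ± 95.5 at 2 months (SD, n = 14 and 9), and 4 of the 14 15-month mice lay above every 2-month mouse and 1 below every one. The log2 change was 0.02 ± 0.06 (SE, 95% interval -0.10 to 0.14), with a limma adjusted p of 0.919. The log2 changes of 100960_g_at and 161121_f_at were -0.11 ± 0.08 and 0.13 ± 0.09 (SE), with adjusted p-values of 0.605 and 0.577, and the dim 161862_i_at differed by -0.16. The 4 probe sets of the gene varied apart between mice: their 6 correlations lay between -0.25 and 0.04 over 23 mice. A value of S100a13 is therefore a value of the probe set named.

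S100a1 and S100a13 start from the same stretch of chromosome 3 on opposite strands. Their 300-base windows share 204 bases, chr3:90514281-90514484 in RefSeq on GRCm38.p6, shown on the plus strand because it is the start of both genes:
S100a1 and S100a13: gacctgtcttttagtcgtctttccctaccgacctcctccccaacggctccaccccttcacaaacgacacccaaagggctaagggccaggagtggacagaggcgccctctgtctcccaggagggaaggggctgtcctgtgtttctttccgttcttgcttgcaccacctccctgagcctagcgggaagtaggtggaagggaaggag
There are no capitals, since neither full window held any of the 5 motifs searched above. The GC box letters GGGCGG were found in 35.7% of all windows, the TATA box letters TATAAA in 13.6% and those of the AP-1 site, TGANTCA, in 7.81%. By contrast the S100a4 window held TATAAA, beginning 31 bases before the start, and the S100a11 window held the E-box once, the AP-1 letters at 2 places and the GC box at 3. RefSeq windows were matched by symbol for 6 of the 7 members, all but S100a10. A match or its absence is a property of these letters alone.

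Whether the members changed by different amounts was tested within arrays, where scaling between arrays plays no part. For each of the 10 pairs of the 5 tested genes the log2 ratio of their brightest probe sets was compared between the ages by an exact two-sided permutation test, with adjustment over the 10 pairs. The size of such a ratio depends on the probes, so only its change is read. The pairs share genes, which were chosen with earlier results known, and use the same values as the limma test. The adjustment covers the 10 pairs and not all probe sets of the array. These p-values are therefore no separate support for the S100b and S100a6 calls, and they cannot be set beside the limma adjusted p-values. The ratio of S100a6 to S100a10 was -0.46 ± 0.16 at 15 months and -0.85 ± 0.15 at 2 months (SD, n = 14 and 9), and 13 of 14 15-month mice were above every 2-month mouse. The change of 0.39 had p = 1.22e-05 and adjusted p = 0.000122 by the exact permutation test. S100a6 also gained on S100a1, by 0.38 (adjusted p = 0.000655, exact permutation), and on S100a13, by 0.38 (adjusted p = 0.00441, exact permutation).

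S100b gained on the same 3 genes: by 0.41 on S100a13 (adjusted p = 0.00183), 0.41 on S100a1 (adjusted p = 0.00288) and 0.42 on S100a10 (adjusted p = 0.00729), all by the exact permutation test. The ratio of S100b to S100a6 differed by 0.03 between the ages (adjusted p = 0.977, exact permutation), with 0.69 ± 0.31 at 15 months and 0.66 ± 0.30 at 2 months (SD). The ratios among S100a10, S100a1 and S100a13 differed by between -0.01 and -0.00, each with an adjusted p of 0.977 by exact permutation. All 4 ratios with S100a10 depended on the probe set. With each gene taken as the mean of its tested probe sets (2 for S100a10, 3 for S100a13), S100a10 lost 0.27 against S100a1 (adjusted p = 0.0276, exact permutation) and 0.26 against S100a13 (adjusted p = 0.0353, exact permutation). In the same setting S100a6 gained 0.65 on S100a10 and S100b gained 0.68 (adjusted p = 4.89e-05 and 0.000436, exact permutation).

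**Figure D3:**
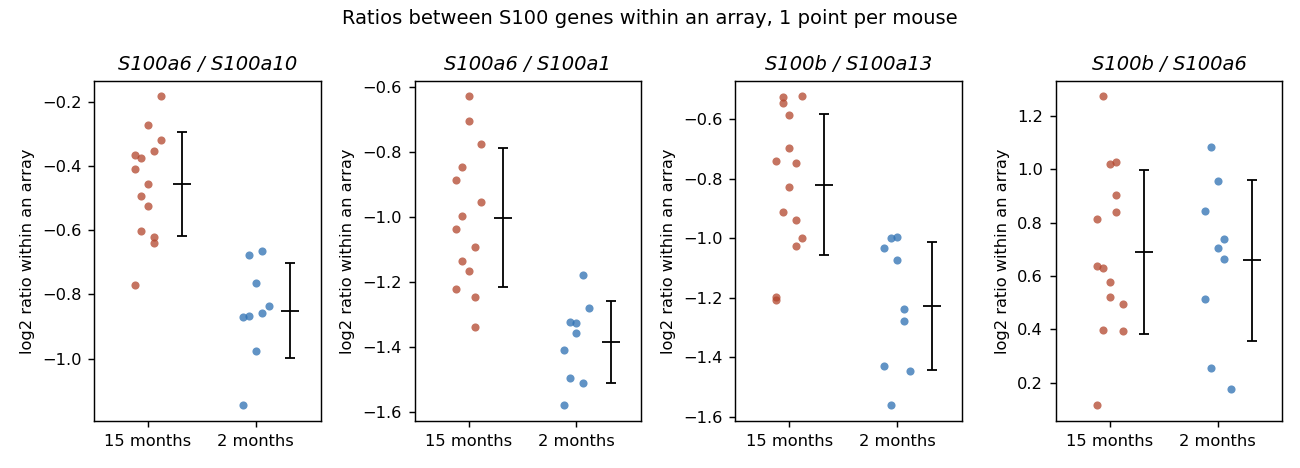
Log2 ratio of the signals of a pair of S100 genes within each array, 1 point per mouse, 15-month mice on the left; bars are the mean ± SD (n = 14 and 9). In the S100a6 to S100a10 panel 13 of 14 15-month mice are above every 2-month mouse, whereas the S100b to S100a6 values of the ages cover a common range.

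The members were next set against each other between mice of one age. After each age's mean was subtracted, S100b and S100a6 correlated with r = -0.12 (permutation p = 0.583) and rho = -0.08 over 23 mice (r without the 2 farthest mice 0.07). S100a6 varied with S100a10 instead, with r = 0.68 (permutation p = 0.00077, adjusted p = 0.0115 over 15 pairs) and rho = 0.64 (permutation p = 0.00181, adjusted p = 0.0271). This was read on the brighter S100a10 probe set, and the relation with the dim S100a10 probe set was not tested. Without the 2 mice farthest from the S100a6 median r was 0.69. Within the ages r was 0.72 in the 14 15-month mice and 0.61 in the 9 2-month mice, and it was 0.65 with the 4 arrays of lowest 99th percentile left out. This was the 1 pair of the 15 that passed. The next were S100a6 with S100a1 (r = 0.46, rho = 0.43, r without the 2 farthest mice 0.40, permutation p = 0.0295, adjusted p = 0.221) and the neighbours S100a1 and S100a13 (r = 0.39, rho = 0.22, r without the 2 farthest mice 0.24, permutation p = 0.0705, adjusted p = 0.353).

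**Figure D4:**
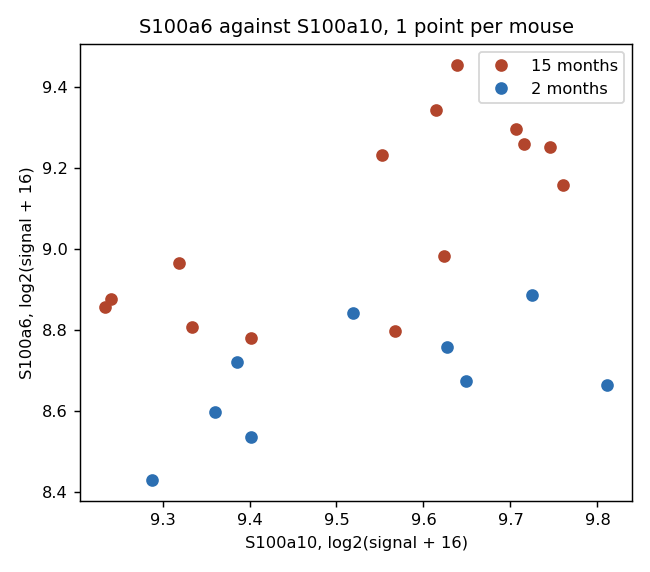
S100a6 (vertical) against S100a10 (horizontal), each as log2(signal + 16) of its brightest probe set, 1 point per mouse. Within each age mice higher in S100a10 are higher in S100a6 (r = 0.72 at 15 months and 0.61 at 2 months), and in 13 of 14 15-month mice S100a6 is higher relative to S100a10 than in every 2-month mouse.

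The genes most like each member between mice were listed by r over the 23 mice with each age's mean subtracted, among 5679 or 5680 other tested genes. All share the same arrays and scaling, and r is given as a description. For S100b they were Elp2, a subunit of the Elongator complex (r = 0.79), Aktip (0.74) and Tlcd4 (0.71). For S100a6 they were S100a10 (r = 0.68), the dynactin subunit Dctn2 (0.66) and the transcription elongation factor Elof1 (0.65). S100a10 was in turn most like S100a6, then the Wnt co-receptor Lrp6 (r = 0.62) and the sugar transporter Slc50a1 (0.61). The dim S100a4 was nearest to Zfp444, the pseudogene Glns-ps1 and S100a3 (r = 0.66, 0.66 and 0.63). S100a1 was nearest to Gfer, Isca2 and Commd2 (r = 0.66, 0.65 and 0.65), of which Gfer and Isca2 act in mitochondria, and S100a13 to Slc25a39, Tst and Tcf15 (r = 0.74, 0.71 and 0.68), of which Slc25a39 and Tst are mitochondrial. Apart from S100a6 beside S100a10, none of these 18 genes passed the limma test between the ages, the lowest adjusted p being 0.364 for Elof1.

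Other S100 genes and S100-fused genes, whose proteins carry an S100 unit in a long skin protein, were mostly near the floor of the array. Of 15 listed genes 10 were on the array, 2 were bright enough to test and 0 of 2 were called in either direction, with 0 at an unadjusted p under 0.05 by limma and 0 called by Mann-Whitney. The tested probe sets were 101051_at of S100a3 (log2 change -0.03, limma adjusted p = 0.917) and 162428_i_at of S100a14 (0.08, adjusted p = 0.752). Each gene also has a dimmer probe set below the filter. For S100a14 the medians at 15 and 2 months were 1589 and 1504 on the tested probe set but 77.05 and 82.6 on 104594_at. For S100a3 they were 154.4 and 150.9 on the tested probe set and 8.8 and 12.9 on 101052_g_at. S100a8 and S100a9, which form the calprotectin dimer of neutrophils, were below the filter. S100a8 (103448_at) had a lowest signal of 10.9, a median of 43 and a highest of 152.6 in 15-month mice, against 20, 40.5 and 63 in 2-month mice, a log2 difference of 0.08. S100a9 (103887_at) had 13, 21.4 and 59.6 in 15-month mice, against 6, 9.7 and 27.6 in 2-month mice. The S100a9 difference was 0.59 ± 0.17 (SE) in the fit without a filter, with an unadjusted p of 0.00185 and an adjusted p of 0.211 by limma.

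Of the proteins that S100 members bind or act through, 38 genes were listed, with earlier results of these data known. Of these, 34 were on the array and 28 were tested. Among them 1 was called higher and 0 were called lower, against 0.335% and 0.0403% of all tested probe sets, and the list's median log2 change was -0.03, against -0.02 over all tested. The called gene was Anxa2, whose protein annexin A2 binds membranes and is held in a tetramer by S100a10. Its signal was 309 ± 68.5 in 15-month mice, with a range of 222.3 to 450.4, and 198 ± 48.5 in 2-month mice, with a range of 149.4 to 309.5 (SD, n = 14 and 9). All 14 15-month mice were above the 2-month mean, and the log2 change was 0.61 ± 0.12 (SE) with a limma adjusted p of 0.0128. The call was lost without the same 4 arrays (log2 change 0.55, limma adjusted p = 0.0696) and in an exact Mann-Whitney test (adjusted p = 0.068). It was also lost with the astrocyte score as a covariate in limma (0.57, adjusted p = 0.176) and with the microglia score (0.80, adjusted p = 0.251). In those 2 fits 3 and 1 probe sets of the whole array were called higher. The log2 change was 0.61 for Anxa2 and 0.00 for the brighter S100a10 probe set, a difference that was not tested. Between mice they correlated with r = 0.14 (rho = 0.09, r without the 2 farthest mice 0.04, permutation p = 0.531, adjusted p = 0.793 over 4 relations).

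Gfap, Cacybp, Ager and Anxa1 were not called. Gfap, the filament protein of astrocytes that S100b binds, had 1820 ± 341 in 15-month mice and 1329 ± 262 in 2-month mice (SD), a log2 change of 0.45 ± 0.11 (SE) with a limma adjusted p of 0.0851. Its call depended on a few arrays: without the 4 arrays of lowest 99th percentile signal the change was 0.62 with an adjusted p of 0.00254, and leaving out single mice gave adjusted p-values of 0.0174 to 0.201. Cacybp, the S100a6 partner, had 291 ± 45.2 in 15-month mice and 278 ± 59.4 in 2-month mice, a log2 change of 0.08 ± 0.11 (SE) with an adjusted p of 0.815. Ager, the receptor for extracellular S100 proteins, was dim, with 78.3 ± 26.4 in 15-month mice and 81.1 ± 15.7 in 2-month mice. Anxa1, the partner of S100a11, was dimmer still, with 44.9 ± 35.7 in 15-month mice and 19.2 ± 14.2 in 2-month mice. At an unadjusted p under 0.05 by limma 5 partners were higher, Anxa2, Gfap, Ahnak, Anxa5 and Plat, and 1 was lower, the kinase Stk38 (-0.42, adjusted p = 0.309), out of 28, where 5.89% of all tested probe sets were higher and 6.51% lower. Ahnak is a large scaffold bound by the annexin A2 and S100a10 tetramer (0.29, adjusted p = 0.324), and Plat encodes the tissue plasminogen activator, which the same tetramer binds at cell surfaces (0.28, adjusted p = 0.372). The 4 relations between mice tested for partners, those of S100a10 and S100a6 with Anxa2, S100a6 with Cacybp and S100b with Gfap, had r between 0.01 and 0.28, and the lowest adjusted permutation p was 0.792 for r and 0.519 for rho.

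Among 31 tested genes of other EF-hand proteins, out of 54 listed, 0 were called in either direction by limma and 0 by an exact Mann-Whitney test, and 5 had an unadjusted p under 0.05 in each, where 12.4% of all tested probe sets did by limma. The list's median log2 change was 0.02. By limma the 5 were Sparcl1, an astrocyte matrix protein (0.14 ± 0.05), Rcn2, of the endoplasmic reticulum (0.21 ± 0.09), and Aif1, of microglia (0.48 ± 0.18), which were higher at 15 months. The other two were Calb1 and Calb2, the neuronal calcium buffers calbindin and calretinin, which were lower, by -0.17 ± 0.08 and -0.23 ± 0.10 (log2 change ± SE). Their adjusted p-values were 0.258 to 0.361.

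**Figure D5:**
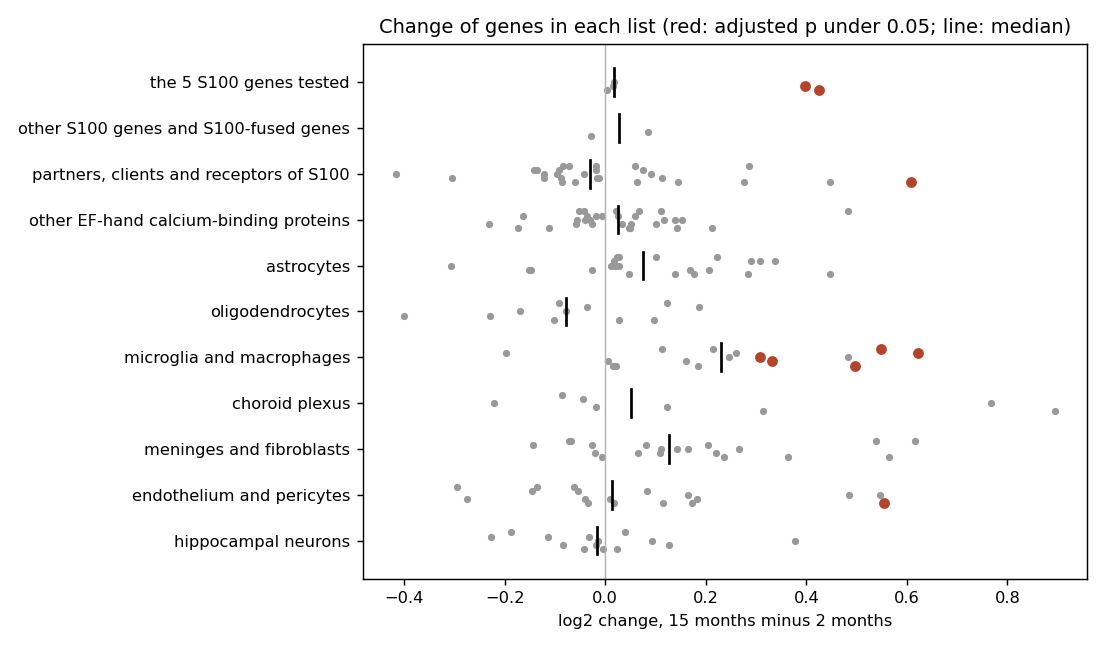
Log2 change, 15 months minus 2 months, of the tested genes of the lists, 1 point per gene (its brightest probe set). The ependyma and blood cell lists are not shown. Red points passed the limma test and black lines are medians. S100b and S100a6 stand in the top row away from the other S100 genes, and the microglia and macrophage list, with 5 called genes, has the highest median (0.23).

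Markers of the cell types that could carry S100 transcripts were read beside these results. The marker lists were chosen with earlier results of these data known, so their counts are a description. Of 22 tested astrocyte genes 0 were called by limma or by the exact Mann-Whitney test, 7 were higher and 1 lower at an unadjusted p under 0.05 by limma (5.89% and 6.51% of all tested probe sets), and the median log2 change was 0.07, with 18 above 0. Their summed signal ran from 62228 to 96692 in 15-month mice and from 69049 to 82402 in 2-month mice. The mean log2 level of the list differed by 0.10 (exact permutation p = 0.0148, adjusted p = 0.0667 over 9 lists), against 0.43 for S100b. Of 16 tested microglia and macrophage genes 5 were called higher, Ctss, Ly86, Mpeg1, C1qb and C1qc, and 0 lower, against 0.335% and 0.0403% of all tested probe sets. At an unadjusted p under 0.05 by limma 9 were higher and 1 lower, against 5.89% and 6.51% of all tested probe sets. The median log2 change was 0.23, with 15 of 16 above 0, and the exact Mann-Whitney test called 4. The summed signal of that list was 12969 to 15548 in 15-month mice and 10762 to 12978 in 2-month mice, and its mean log2 level was higher by 0.24 (exact permutation adjusted p = 8.81e-05).

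The lists of cells that surround the hippocampus varied widely within each age. Choroid plexus genes had 0 of 8 called and a summed signal of 2832 to 16589 in 15-month mice and 2996 to 14760 in 2-month mice, and meningeal and fibroblast genes had 0 of 20 called and 9892 to 33842 in 15-month mice against 12436 to 27167 in 2-month mice. Endothelial and pericyte genes had 1 of 18 called higher, the glucose transporter Slc2a1, against 0.335% of all tested probe sets. For oligodendrocytes 0 of 11 genes were called, for neurons 0 of 14, for ependyma 0 of 3 and for blood cells 0 of 5. At an unadjusted p under 0.05 by limma 1 choroid plexus, 3 meningeal, 3 endothelial and 1 neuronal gene were higher. At the same threshold 2 oligodendrocyte genes and 1 blood gene were lower. Over all tested probe sets 5.89% were higher and 6.51% lower. The exact Mann-Whitney test called 0 in each of these lists. After each age's mean was subtracted, none of 54 relations between a member gene and the score of a marker list passed over the 23 mice (lowest adjusted permutation p = 0.555 for r and 0.508 for rho), nor did any of 12 with the 25th or 99th percentile of the array (0.564 for r and 0.717 for rho).

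With the astrocyte score as a covariate in limma the S100b difference was 0.46 and that of S100a6 0.47, each with an adjusted p of 0.0812, and 3 probe sets of the whole array were then called higher. With the microglia score, which itself separates the ages, the S100b difference was 0.30 (adjusted p = 0.546) and that of S100a6 0.44 (adjusted p = 0.372), and 1 probe set of the array was called higher. With the choroid plexus or the meningeal score S100b passed, and the S100a6 difference was 0.38 in each fit, with adjusted p-values of 0.055 and 0.0581. The exact Mann-Whitney test called S100a6. A fit with a score that itself differs between the ages cannot tell tissue makeup from age. The part of tissue makeup in the S100b and S100a6 results was not tested.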

How the data were processed

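Total RNA of whole hippocampus was labelled with biotin and hybridised to 1-colour arrays, per the labels' protocols. The authors deposited 1 intensity per probe set and array, linear and never negative. Per the submitters' processing notes the tool was MAS5, whose version and settings were not given in the sources used here. After trimming 2% at each end the mean was 500.3 on all arrays, so no further normalisation was done. Groups were taken from the labelled age, and replicate numbers only name mice, in accession order. Detection calls were not used here, and the number of arrays limits the precision.

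Signals were taken as log2(signal + 16), which understates changes of dim genes. Of 12422 non-control probe sets, 7453 above the 40th percentile of mean log2 signal were tested with limma 3.58.1 in R 4.3.3 (lmFit, eBayes with trend and robust variance, two-sided, Benjamini-Hochberg, threshold 0.05). The fit was tested on simulated data. Gene names come from the platform annotation: 10833 probe sets had 1 symbol, 396 several and 1193 none. A gene with several probe sets stands for its brightest in ratios, lists and correlations. Exact permutation tests ran over 817190 regroupings and correlations over 100000 permutations within ages, with Benjamini-Hochberg adjustment in each family, in Python 3.11.15 (scipy 1.17.1, numpy 2.4.6, pandas 2.3.3); figures used matplotlib 3.10.9. Sequences are from RefSeq, GRCm38.p6. The genes named were all members, every list gene that passed the test, Anxa2, Anxa1, Cacybp, Ager, Gfap, S100a8 and S100a9, and the 3 genes most like each member; S100a5, S100a3, S100a14, Hpca, Ahnak, Anxa5, Plat, Stk38, Sparcl1, Rcn2, Aif1, Calb1 and Calb2 were added after their values were seen. The members and lists were chosen with earlier results of these data known. Alternatives covered the pseudocount, the filter, normalisation, the test, arrays left out and covariates.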

Additional observations from a re-analysis of the deposited data

Results flagged for a closer look

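The S100a13 probe set 161121_f_at had 1 young mouse far from the others: 2-month replicate 8, at a signal of 385.9, was separated from the next mouse by a share of 0.495 of the whole 2-month range on the log2 scale. The limit for 9 samples is passed by chance in about 1 of 20 groups, and 9 member probe sets were examined in this way in the 2-month mice. Without that mouse the log2 change of this probe set, 15-month minus 2-month, was 0.06 (limma adjusted p = 0.764), against 0.13 (adjusted p = 0.577) with it.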

How the results depend on the processing

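Of 1105 values computed under alternatives, 1021 kept their direction and their side of the threshold, or their size where no test applies. Other pseudocounts (1 and 64), no filter, quantile normalisation, median centring and limma without trend or robust variance ended no S100 call. The S100b call was lost with the astrocyte score (0.46, adjusted p = 0.0812) and the microglia score (0.30, adjusted p = 0.546) as limma covariates and in the exact Mann-Whitney test (0.43, adjusted p = 0.0536). Leaving out each mouse gave 0.39 to 0.46, all called. The S100a6 call was lost with the astrocyte (0.47, adjusted p = 0.0812), choroid plexus (0.38, adjusted p = 0.055), meningeal (0.38, adjusted p = 0.0581) and microglia scores (0.44, adjusted p = 0.372) and with the 4 arrays of lowest 99th percentile left out (0.36, adjusted p = 0.103), all by limma, with 0.37 to 0.42 when each mouse was left out. The cause of these losses was not tested. Members near 0 changed sign. S100a10 (92539_at) was -0.010 with the 25th percentile of the array as a covariate and -0.022 without the 4 arrays, and -0.027 to 0.038 with each mouse left out. S100a1 (95453_f_at) was -0.074 with the microglia score and -0.0046 to 0.050 with each mouse left out. S100a13 was -0.00028 (100959_at, astrocyte score), -0.15 (100959_at, microglia score) and 0.031 (100960_g_at, microglia score), with -0.0062 to 0.036 for 100959_at when each mouse was left out. With the microglia score Cacybp was -0.10, Sparcl1 -0.0084 and Aif1 -0.26, and Cacybp was -0.011 (without 2-month replicate 1) to 0.12 with each mouse left out. The S100a10 ratio to S100a1 was -0.27 and to S100a13 -0.26 with the mean of all tested probe sets (exact permutation adjusted p = 0.0276 and 0.0353) and 0.017 in both without the 2 arrays of lowest correlation; the S100a1 to S100a13 ratio was 0.0040 with the mean of probe sets. The S100 count called higher was 0 with the astrocyte or microglia score, 1 with the choroid plexus or meningeal score, without the 4 arrays or by Mann-Whitney, and 1 to 2 with each mouse left out. Over the whole array 25 probe sets were called higher, and 40 with the 25th percentile, 3 with the astrocyte score, 1 with the microglia score and 18 to 32 with each mouse left out. The 3 called lower became 21 with the 25th percentile, 0 with the astrocyte or microglia score, 6 with a filter at the 60th percentile, 5 with the meningeal score and 8 by Mann-Whitney; with each mouse left out they were 2 to 7, with 7 without 15-month replicate 3 and 5 without replicate 9, 10 or 12. The correlation of S100a6 with S100a10 was 0.65 to 0.73 with each mouse left out, an alternative chosen after seeing the data. No paired analysis was possible because the replicate numbers were given in accession order and pair no mice. Probe sets below the filter are dim and were not set against a background level, which limits what can be said of S100a4 and of the dim probe sets of S100a1 and S100a13. S100a4 lay just under the filter, with a mean log2 signal of 6.65 against a limit of 6.75.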
